A study of Rattus norvegicus with 32 samples.

Results

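Genes that write, erase and read DNA methylation were followed through RNA-seq of 4 rat brain regions after methamphetamine (METH). They are Dnmt1, Dnmt3a and Dnmt3b, which encode DNA methyltransferases, Tet1, Tet2 and Tet3, which encode 5-methylcytosine dioxygenases, and Uhrf1, which encodes a reader of hemimethylated DNA. The 7 members were chosen by name from the 28914 genes of the count files. No cut on their values was made, but earlier results of these data were known. All 7 are in the files. By the annotation in the count files, on rn6, Dnmt1 lies on chromosome 8 (21922515 to 21968495, − strand), Dnmt3a on chromosome 6 (28235695 to 28340577, + strand) and Dnmt3b on chromosome 3 (149131785 to 149208786, + strand). Tet1 lies on chromosome 20 (27366213 to 27437427, + strand), Tet2 on chromosome 2 (238720835 to 238803024, − strand), Tet3 on chromosome 4 (115066309 to 115157263, − strand) and Uhrf1 on chromosome 9 (10738222 to 10757954, − strand). Reads were counted over exons, with 3290 (Dnmt3b) to 7760 (Tet2) exonic bases per member, without regard to strand, and the exons of the members overlapped those of no other gene in the files.

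DNMT1 copies methylation onto the new strand after replication, and UHRF1 brings it to the hemimethylated sites there. DNMT3A and DNMT3B set new methylation, and DNMT3A is the main such enzyme of mature neurons, where it also methylates cytosines outside CpG. TET enzymes oxidise 5-methylcytosine to 5-hydroxymethylcytosine, a base that is abundant in neurons, and so begin its removal. Messenger RNA of these enzymes was measured here, and neither their activity nor methylation itself.

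The animals were adult male Sprague-Dawley rats. Those of the METH groups received 4 intraperitoneal injections of 10 mg/kg METH, 2 h apart, and those of the saline (Sal) groups received saline on the same schedule. The nucleus accumbens (NAc), the dentate gyrus (DG), the Ammon's horn (CA) and the subventricular zone (SVZ) were dissected 24 h after the final dose. Per region there were 4 Sal and 4 METH libraries of total RNA depleted of ribosomal RNA, 32 in all, and a library is called by its region, treatment and replicate, as in DG Sal 3. The labels do not tie replicates to animals, so p-values measure the spread between these libraries, which may in part be technical.

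Total counts lay between 11094002 and 21869773 per library. Levels are given in CPM, which are counts scaled by the upper-quartile effective library size, and, where genes are compared with each other, in CPM per kb of exon. In bulk tissue, fewer cells of a type and less RNA per cell cannot be told apart.

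Some libraries stood apart from their label in marker genes of cell types. DG Sal 3 held 3.88 CPM of Slc17a7, the vesicular glutamate transporter of hippocampal and cortical neurons, against 1103 to 2000 CPM in the other DG libraries, and 542 CPM of Ppp1r1b, a marker of striatal medium spiny neurons. NAc METH 3 held 41.7 CPM of Ppp1r1b against 479 to 2453 CPM in the other NAc libraries. SVZ Sal 1, SVZ METH 2 and SVZ METH 4 held 937, 805 and 597 CPM of Prkcd, abundant in thalamus, against 33.0 to 205 CPM in the other SVZ libraries. The CA1 markers Fibcd1 and Spink8 were at most 0.0648 and 0.213 CPM in the CA libraries, while Slc17a7 was at 1332 to 2163 CPM there. The whole list of CA pyramidal neuron genes, to which both belong, summed to 452 to 628 CPM in the CA and to 123 to 1035 CPM in the NAc. Choroid plexus RNA was uneven too. Ttr, the transthyretin gene that choroid plexus expresses most strongly, was at 7405 CPM in SVZ METH 3 (329 CPM or less in the other SVZ libraries), 5378 CPM in DG METH 3, 1875 CPM in CA Sal 2 and 1803 CPM in DG Sal 4. The headers of the count files also give name fragments and library numbers. Libraries with the same fragment are called a header batch, which neither the labels nor the headers describe as a sequencing run. The 4 NAc Sal and the 4 CA Sal libraries carry the same numbers in the same order, and so do their METH libraries and replicates 3 and 4 of the DG, while the labels do not say that a number marks an animal. In the DG, Sal 1 and Sal 2 carry numbers that mark METH libraries in the NAc and CA, and METH 1 and METH 2 carry numbers of Sal libraries there. The 4 SVZ METH libraries carry only 2 numbers. Groups follow the labels, and values without these libraries are given beside the results named with them.

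Start regions are shown for Uhrf1 and Dnmt1, the pair that together maintain methylation, because they were the members with a match to an E2F motif, a site bound by factors that drive genes of DNA replication. 3 forms were searched on both strands, TTTCGCGC, TTTGGCGC and TTTCCCGC. The windows came from RefSeq on GRCr8, reached from 250 bases before to 50 after a start, and were found for 6 of 7 members, Dnmt3b being without one. In capitals are the matched bases, and GCGCGAAA and GCGGGAAA are the matches read on the other strand.
Uhrf1, chr9:1222936-1223185, + strand: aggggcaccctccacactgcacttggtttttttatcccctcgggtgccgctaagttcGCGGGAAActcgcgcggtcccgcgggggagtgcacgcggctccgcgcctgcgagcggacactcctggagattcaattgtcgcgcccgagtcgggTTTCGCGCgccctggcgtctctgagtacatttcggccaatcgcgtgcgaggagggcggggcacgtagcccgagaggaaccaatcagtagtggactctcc
Dnmt1, chr8:27762797-27762826, − strand: gtttccgcgcGCGCGAAAaagccggggtct

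The Uhrf1 stretch is the upstream part of the last of its 3 windows. It held TTTCGCGC 99 bases before the start and TTTCCCGC on the other strand 193 bases before it. In Dnmt1, TTTCGCGC lay on the other strand 25 bases after the start. TTTCGCGC was found in 0.326% of 33469 windows, TTTGGCGC in 0.493%, TTTCCCGC in 0.974%, and any of them in 1.72%. The windows of Dnmt3a, Tet1, Tet2 and Tet3 held 0 matches. The median of all windows held 7 CpG, the sites at which these enzymes act, while Tet2 held 39, the last Uhrf1 window 35, Dnmt3a 21 and Dnmt1 17. The windows of Tet1 held 3 to 16 and those of Tet3 3 to 23.

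Per length, Tet3 and Dnmt3a were the most abundant members. Tet3 averaged 19.5 ± 4.05 CPM per kb (SD, n = 32) and Dnmt3a 18.6 ± 3.37 CPM per kb, above 74.4% and 73% of the 16122 genes kept in the fit of all libraries. Dnmt1 followed with 8.94 ± 1.12 CPM per kb and Tet2 with 8.32 ± 1.36 CPM per kb, near the middle of all genes, and Tet1 with 5.34 ± 0.823 CPM per kb. Uhrf1 was low, at 1.59 ± 0.745 CPM per kb, above 20.2% of genes. Dnmt3b was the lowest, at 0.298 ± 0.134 CPM per kb, above 3.67% of genes. It rested on 5 to 43 reads per library and varied by 45.1% (coefficient of variation) over the 32 libraries, so statements on Dnmt3b are limited by depth.

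The same member led its family in every library. Of the summed level per length of the 3 methyltransferases, Dnmt3a took a median of 66.1% over 32 libraries (60.9 to 75.1%), Dnmt1 32.6% (24.1 to 37.9%) and Dnmt3b 0.958% (0.405 to 2.11%). Dnmt3a was above Dnmt1 in every library, with a median ratio per length of 2.03 (1.61 to 3.12). Of the TET family, Tet3 took a median of 59.3% (44.3 to 70.3%), Tet2 24.8% (17.9 to 30.2%) and Tet1 15.5% (11.8 to 26.0%). Tet3 was the most abundant of its family throughout, 2.41 times Tet2 per length at the median (1.5 to 3.92). The ratio of Uhrf1 to its partner Dnmt1 was 0.168 at the median and varied more, from 0.0913 to 0.378.

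**Figure D1:**
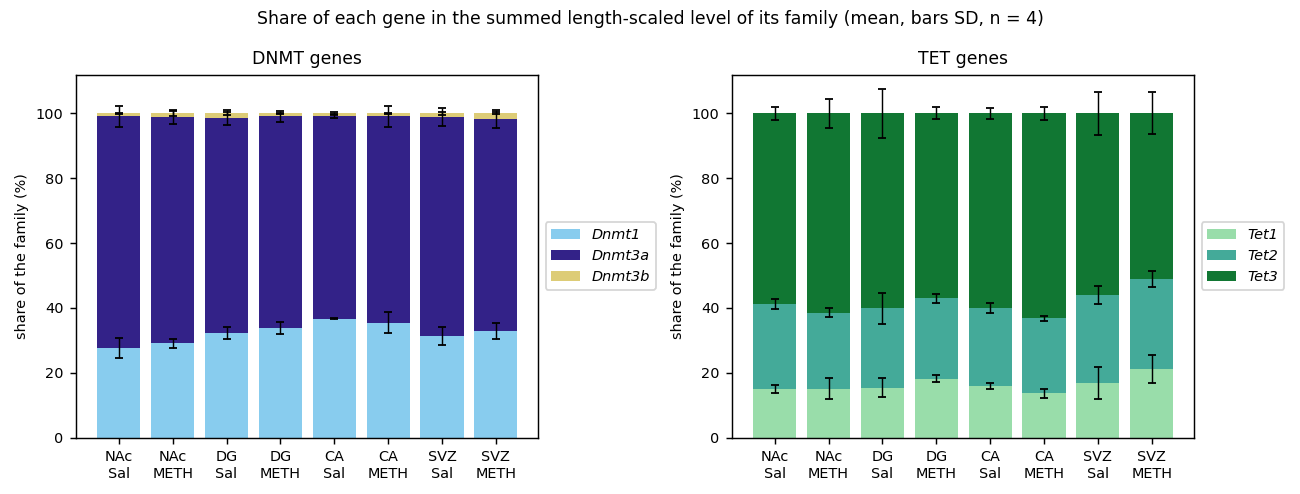
Share (%) of each member in the summed CPM per kb of its family (3 methyltransferases; 3 TET genes), as the mean of the 4 libraries of each group. Dnmt3a and Tet3 take the largest share in every group.

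Whether METH changed these genes was asked in each region separately, by fitting the 8 libraries with edgeR's quasi-likelihood method and adjusting p over all genes tested after Benjamini and Hochberg. Calls were made at an FDR under 0.01 where the fold change also passed 1.5. Of 27 tests of a member in a region (Dnmt3b was too low to be tested in the CA), 0 gave a call and the lowest FDR was 0.233. The background was as low, with 0% of genes called in each of the 4 regions. DESeq2 on the same counts called 3, 183, 10 and 2 genes in the NAc, DG, CA and SVZ, 0 of them members. At an unadjusted p under 0.05, 3 of the 27 passed, Dnmt3a and Tet2 in the DG and Tet3 in the CA. Log2 fold changes ran from -0.70 to 0.58, both of Dnmt3b. In 17 of the 27 tests the 95% interval stayed within a change of 1.5-fold either way, and in the other 10 it reached beyond, which leaves changes of that size possible there.

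**Figure D2:**
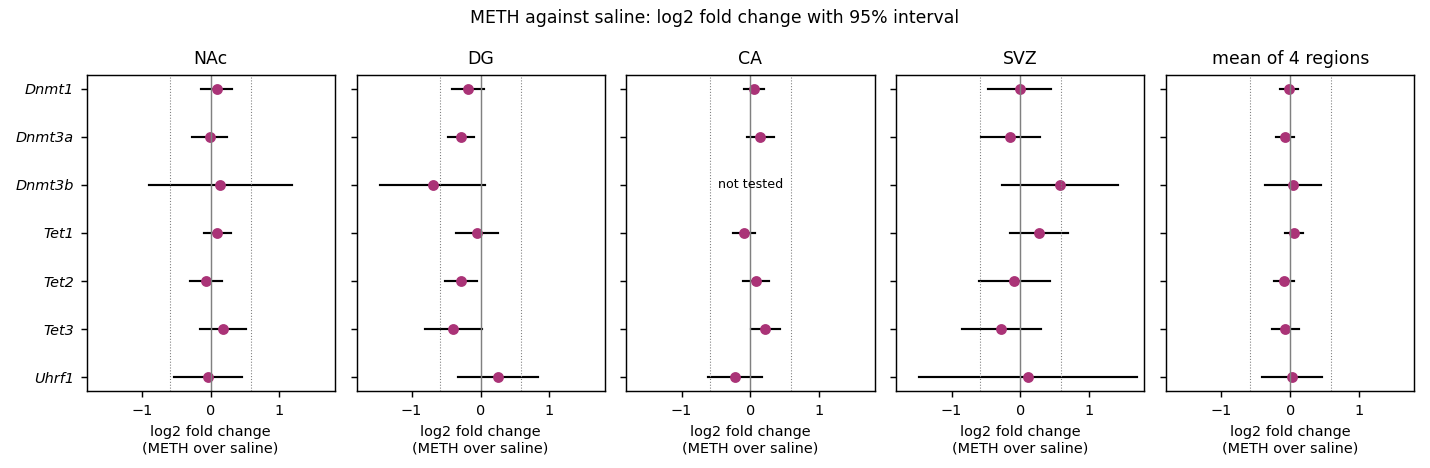
Log2 fold change of METH against saline for each member and region (points) with 95% intervals (bars) from edgeR's quasi-likelihood fit of 4 against 4 libraries. The intervals of Dnmt3a and Tet2 in the DG lie below 0 and that of Tet3 in the CA above 0, and the interval of Uhrf1 is widest in the SVZ, from -1.47 to 1.7.

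In the DG, 3 of the 7 members, Dnmt3a, Dnmt3b and Tet2, were lower in every METH library than in every Sal library, as were 3.48% of the 14800 genes tested there, while 3.91% were higher in every METH library. In the other regions 0 members were separated in this way, against 0.914% of genes lower and 1.35% higher in the NAc, 1.86% and 2.57% in the CA and 0.757% and 0.847% in the SVZ. Dnmt3a, the main de novo methyltransferase, was at 76.5, 80.8, 86.0 and 76.0 CPM in DG Sal 1 to 4 and at 67.5, 68.6, 62.0 and 63.9 CPM in DG METH 1 to 4. The groups did not overlap, and the highest METH library lay below the lowest Sal library. The log2 fold change was -0.29 (SE 0.082, 95% interval -0.47 to -0.098), or 0.82-fold, with an unadjusted p of 0.00756 and an FDR of 0.233 (edgeR quasi-likelihood test, Benjamini-Hochberg adjusted). Of all genes tested in the DG, 12.8% had an unadjusted p under 0.05 and 6.42% had one and were lower with METH, and Dnmt3a ranked 481 by p. By DESeq2 its FDR was 0.0124, still above 0.01. Without DG Sal 3, the library low in Slc17a7, the log2 fold change was -0.24, and without the 4 libraries whose numbers cross the labels it was -0.37 (SE 0.15, unadjusted p 0.0693). With the header batch as a covariate it was -0.35. That value rests on DG Sal 3 against METH 1 and METH 2, the only DG libraries of a batch with both treatments. The summed level of 7 astrocyte genes was 2906 to 3660 CPM in DG Sal and 4165 to 4390 CPM in DG METH, without overlap, and that of dentate granule neuron genes was 114 to 285 CPM (median 157) in Sal and 99.8 to 521 CPM (median 382) in METH. Their part in the lower Dnmt3a was not tested.

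Tet2 was at 60.9, 59.6, 72.1 and 74.7 CPM in DG Sal 1 to 4 and at 55.4, 57.6, 53.3 and 53.5 CPM in DG METH 1 to 4. The 4 METH libraries lay close together and below each Sal library, although DG Sal 2 was only slightly above the highest of them. The log2 fold change was -0.28 (SE 0.10, 95% interval -0.52 to -0.046), with an unadjusted p of 0.0248 and an FDR of 0.313 (edgeR quasi-likelihood test, Benjamini-Hochberg adjusted). Leaving out the 4 libraries with crossing numbers gave -0.46 (unadjusted p 0.0284 by edgeR). The header batch as a covariate gave -0.36, which again rests on DG Sal 3 against METH 1 and METH 2.

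Tet3 in the DG was at 119, 183, 108 and 115 CPM in Sal 1 to 4 and at 94.4, 117, 88.9 and 99.2 CPM in METH 1 to 4. Sal 2 was far above the other Sal libraries, and METH 2 lay within the Sal range. The log2 fold change of -0.39 (SE 0.18, 95% interval -0.80 to 0.014) had an unadjusted p of 0.0567. It was -0.20 without DG Sal 2 and -0.25 without the 4 libraries with crossing numbers. With the header batch as a covariate it was -0.040, resting on DG Sal 3 against METH 1 and METH 2.

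Dnmt3b in the DG was at 1.02, 0.874, 0.826 and 1.89 CPM in Sal and at 0.676, 0.650, 0.798 and 0.691 CPM in METH, that is 10 to 23 reads against 9 to 17 reads per library. Again no METH library reached a Sal library, but Sal 4 set much of the distance. Its log2 fold change was -0.70 (SE 0.33, 95% interval -1.45 to 0.061, unadjusted p 0.0671), and -0.35 without Sal 4. Dnmt1, the maintenance enzyme, was at 55.1, 54.9, 50.3 and 52.9 CPM in DG Sal and at 45.1, 54.6, 42.0 and 46.4 CPM in DG METH. METH 2 lay within the Sal range and the other METH libraries below it. The log2 fold change of Dnmt1 was -0.18 (95% interval -0.41 to 0.050), that of Tet1 -0.046 (95% interval -0.35 to 0.26) and that of Uhrf1 0.25 (95% interval -0.33 to 0.83). Leaving out 1 library at a time gave Uhrf1 0.14 (without Sal 1) to 0.44, the latter without METH 3, the DG library with the most Ttr (unadjusted p 0.0460). Without METH 3 the FDR of Uhrf1 was 0.387, and 1891 genes had an unadjusted p under 0.05 (edgeR quasi-likelihood test, Benjamini-Hochberg adjusted). Over the 7 members the median log2 fold change in the DG was -0.28, beside -0.011 over all genes tested. In the NAc and SVZ the median member was Dnmt1, with 0.086 and -0.012. In the CA the middle values were 0.054 (Dnmt1) and 0.078 (Tet2). The members are not independent of each other, and a change of the members as a set was not tested.

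In the CA, Tet3 was at 107, 111, 104 and 120 CPM in Sal 1 to 4 and at 127, 146, 129 and 111 CPM in METH 1 to 4. CA METH 4 lay among the Sal libraries and the other METH libraries above them. The log2 fold change was 0.21 (SE 0.092, 95% interval 0.0045 to 0.42), with an unadjusted p of 0.0462 and an FDR of 0.688 (edgeR quasi-likelihood test, Benjamini-Hochberg adjusted), where 4.37% of genes tested had an unadjusted p under 0.05 and were higher, and 7.16% in either direction. Among the regions the CA had the least spread between libraries (biological coefficient of variation 0.199), and the other members there were held to narrow intervals. Dnmt1 had a log2 fold change of 0.054 (95% interval -0.090 to 0.20), Dnmt3a 0.14 (-0.055 to 0.34), Tet1 -0.093 (-0.26 to 0.070) and Tet2 0.078 (-0.12 to 0.27). Uhrf1 was at 5.51, 5.68, 6.74 and 7.58 CPM in CA Sal and at 4.26, 5.99, 6.48 and 5.11 CPM in CA METH, overlapping groups with a log2 fold change of -0.22 (95% interval -0.61 to 0.17).

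In the NAc, 0 of the 7 members passed an unadjusted p of 0.05, beside 3.39% of genes. The log2 fold changes lay between -0.069 (Tet2) and 0.18 (Tet3, 0.30 with an unadjusted p of 0.0149 without NAc METH 3, the library low in Ppp1r1b), with the widest interval for Dnmt3b (-0.90 to 1.18). Without NAc METH 3, 718 genes had an unadjusted p under 0.05, against 500 with all libraries. There the FDR of Tet3 was at least 0.944 (edgeR quasi-likelihood test, Benjamini-Hochberg adjusted). The maintenance pair was near 0 as well, with 0.086 (95% interval -0.14 to 0.31) for Dnmt1 and -0.039 (95% interval -0.53 to 0.45) for Uhrf1. Dnmt1 was at 44.2, 51.1, 49.5 and 58.9 CPM in NAc Sal 1 to 4 and at 54.4, 54.7, 50.2 and 55.0 CPM in NAc METH 1 to 4, so the METH libraries all lay within the Sal range. Dnmt3a was at 99.9, 82.6, 99.1 and 100.4 CPM in Sal 1 to 4 and at 101.4, 98.1, 77.8 and 97.9 CPM in METH 1 to 4. Each group held 1 library well below the others, Sal 2 and METH 3. Its log2 fold change was -0.013 (95% interval -0.27 to 0.24), and 0.066 without NAc METH 3.

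In the SVZ, too, 0 of the 7 passed an unadjusted p of 0.05, beside 2.58% of genes. Here the libraries of a group differed most (biological coefficient of variation 0.373), and Uhrf1 varied most of the members. It was at 2.60, 9.99, 4.91 and 9.74 CPM in Sal 1 to 4 and at 18.7, 3.21, 4.28 and 3.19 CPM in METH 1 to 4, which stand for 55, 210, 102 and 169 reads and 351, 62, 93 and 68 reads. SVZ METH 1 was the highest of all 32 libraries, while the other METH libraries lay at the low end of the Sal range. The coefficient of variation of Uhrf1 was 53.7% in SVZ Sal and 103% in SVZ METH, against 15.2 to 28.1% in the other 6 groups. The log2 fold change of 0.11 (SE 0.69, 95% interval -1.47 to 1.7) turned to -0.93 without SVZ METH 1, was 0.49 without the 3 libraries rich in Prkcd and 0.077 with the METH libraries of the same number summed. With that sum 0 of the 7 members were called. The sum joined METH 1 with METH 2 and METH 3 with METH 4, which were unlike. Uhrf1 was at 18.7 and 3.21 CPM and Prkcd at 79.2 and 805 CPM in METH 1 and METH 2. Prkcd was at 205 and 597 CPM in METH 3 and METH 4. Dnmt1 was at 75.9 CPM in the same SVZ METH 1 and at 46.8 to 50.7 CPM in the other METH libraries. Its log2 fold change was -0.012 (95% interval -0.46 to 0.44).

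With all 8 libraries, the TET genes of the SVZ had fold changes of both signs, none of them past an unadjusted p of 0.05. Tet1 was at 34.4, 33.8, 27.5 and 37.2 CPM in Sal and at 45.3, 46.4, 27.2 and 40.6 CPM in METH, with 3 METH libraries above the Sal range and METH 3 just below it. Its log2 fold change was 0.27 (95% interval -0.15 to 0.69), which became 0.41 without METH 3, the library with the most Ttr (unadjusted p 0.0156), and 0.15 without the 3 libraries rich in Prkcd. Without METH 3, 715 genes had an unadjusted p under 0.05, and the FDR of Tet1 was above 0.51 (edgeR quasi-likelihood test, Benjamini-Hochberg adjusted). Tet3 was at 67.4, 144, 124 and 133 CPM in Sal and at 123, 78.6, 99 and 83.8 CPM in METH. The lowest Tet3 libraries were Sal 1, METH 2 and METH 4, the same 3 that were rich in Prkcd. These libraries were also the lowest of the SVZ for Dnmt1, Dnmt3a and Uhrf1. The log2 fold change of Tet3 was -0.28 (95% interval -0.85 to 0.30). By edgeR it was -0.26 without those 3 libraries (SE 0.15, unadjusted p 0.121) and -0.47 without Sal 1 alone (unadjusted p 0.0238). Without Sal 1, 2596 genes had an unadjusted p under 0.05, against 402 with all 8 libraries. The FDR of Tet3 was at least 0.270 whichever 1 library was left out (edgeR quasi-likelihood test, Benjamini-Hochberg adjusted).

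Averaged over the 4 regions in a fit of all 32 libraries, the log2 fold changes of the members lay between -0.095 (Tet2) and 0.053 (Tet1). Again edgeR called 0 of 7, beside 0% of genes, and DESeq2 called 0 of 7 and 1 gene in all, while 0 of 7 had an unadjusted p under 0.05, beside 7.83% of genes. The narrowest intervals were those of Tet1 (-0.074 to 0.18), Dnmt3a (-0.21 to 0.048) and Dnmt1 (-0.15 to 0.11). Whether the METH effect differed between regions was tested directly by the interaction of treatment and region, and 0 of 7 members and 0% of genes had an FDR under 0.01. At an unadjusted p under 0.05 there were 0 members and 7.74% of genes, and DESeq2 called 26 genes, 0 of them members. The lowest p was that of Tet3 (0.0664), which was lower with METH in the DG and SVZ and higher in the NAc and CA by the signs of its 4 fold changes. Without the 5 libraries whose markers went against their label this p was 0.00125, with an FDR of 0.206 (edgeR quasi-likelihood test, Benjamini-Hochberg adjusted). Dnmt3a had a p of 0.113 and Tet2 one of 0.385. For Dnmt3a it was 0.0126 without the 5 libraries (FDR 0.290) and 0.0148 without SVZ Sal 1 alone (FDR 0.261), by the same edgeR test. The lower values of Dnmt3a and Tet2 in the DG are therefore not shown to be particular to that region.

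In saline animals, Dnmt3a was the member that varied most clearly between regions. It averaged 22.3 ± 2.01 CPM per kb in the NAc, 20.5 ± 4.14 in the SVZ, 18.6 ± 1.09 in the DG and 15.0 ± 0.636 in the CA (SD, n = 4). The CA libraries, at 61.2, 63.9, 64.5 and 67.9 CPM, lay below the 4 of the NAc (82.6 to 100.4 CPM) and the 4 of the DG (76.0 to 86.0 CPM). They overlapped the SVZ only through SVZ Sal 1, at 62.0 CPM, the other SVZ Sal libraries being at 92.6 to 101.8 CPM. Dentate granule neuron genes summed to 132 to 563 CPM (median 292) in CA Sal and to 114 to 285 CPM (median 157) in DG Sal. By these genes the DG Sal libraries were not higher than those of the CA. CA against the mean of the other regions gave a log2 difference of -0.44 (SE 0.11, 95% interval -0.67 to -0.21) and an FDR of 0.0306 (edgeR quasi-likelihood test, Benjamini-Hochberg adjusted). This is not a call at an FDR under 0.01 and a 2-fold difference, which 0.264% of genes reached in the CA, where 14.6% were lower at an unadjusted p under 0.05. Of pairs of regions, NAc minus CA was 0.57 (FDR 0.0316) and CA minus SVZ -0.45 (FDR 0.0350) by the same test. The SVZ libraries were of a header batch of their own, so a difference between the SVZ and other regions cannot be told apart from that batch. Of the CA Sal libraries, only CA Sal 4 shared a header batch with any NAc or DG Sal library. The differences of the CA from the NAc and DG can therefore hardly be told apart from header batch either. The other pairs were DG minus CA (0.31, FDR 0.521), NAc minus DG (0.26, FDR 0.458), NAc minus SVZ (0.12, FDR 0.760) and DG minus SVZ (-0.14, FDR 0.602) by edgeR, and 0 of the 6 pairs were a call. With the shared numbers of the NAc and CA libraries as pairs, in a fit of those 8 libraries with a replicate block, NAc minus CA was 0.56 (SE 0.086, FDR 0.0230 by edgeR), and 0.56 with an FDR of 0.00721 in the same 8 without the block. The summed level of 8 genes of striatal medium spiny neurons moved with the region as well, at 1591 to 7868 CPM in NAc Sal, up to 5834 CPM (median 3478) in SVZ Sal, 243 to 1848 CPM in DG Sal and 144 to 396 CPM in CA Sal, and its part in the difference of Dnmt3a was not tested.

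The F test of any difference between the 4 regions gave Dnmt3a an FDR of 0.0554 and called 0 of 7 members and 0% of genes at an FDR under 0.01. At an unadjusted p under 0.05 it took 1 member, Dnmt3a, and 26.7% of genes, and DESeq2 called 1495 genes, with Dnmt3a just short at an FDR of 0.0107. Without DG Sal 3 and SVZ Sal 1, 2 libraries whose markers went against their label, Dnmt3a had an FDR of 0.00127 (edgeR quasi-likelihood F test, Benjamini-Hochberg adjusted) and was called, as 1 of 1059 genes, and CA against the others had a log2 difference of -0.48. Tet2 was also lower in the CA than in the mean of the others (-0.30, SE 0.13, unadjusted p 0.0367), with an FDR of 0.167 by the same method. Of the 42 edgeR tests of a member in a pair of regions, 0 gave a call and 4 had an unadjusted p under 0.05. Of all genes, 0.812% were called for CA minus SVZ, 0.0193% for DG minus SVZ and 0% for the other 4 pairs, and 31.6%, 17.6%, 24.1% (NAc minus CA), 12.6% (NAc minus SVZ), 11.5% (NAc minus DG) and 8.93% (DG minus CA) had an unadjusted p under 0.05. For Dnmt1, Tet1, Tet3 and Uhrf1 the log2 differences between pairs of regions lay between -0.32 and 0.25.

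How the members moved with markers of cell types was described in the 8 libraries of each region by the correlation of log2(CPM + 1) with the summed level of marker lists, 448 relations in all. With exact permutation tests and adjustment over the 448, 0 had an adjusted p under 0.05, and the lowest was 0.0926. In the SVZ, Uhrf1 followed the proliferation list, of which 14 of 15 genes are in the files (Pearson's r 0.981, exact permutation p 0.00062; Spearman's rho 0.905, exact permutation p 0.00456; n = 8). Without the 2 libraries farthest from the median r was 0.940. The Prkcd-rich libraries SVZ Sal 1, METH 2 and METH 4 were the lowest of the SVZ in Uhrf1 and in Mki67, a gene of the list (3.35, 3.98 and 3.66 CPM). The summed level of the list was 68.5 to 145 CPM in SVZ Sal and 58.1 to 257 CPM in SVZ METH, against 40.6 to 78.1 CPM in the other groups. In the NAc, DG and CA, where the list varied less, r was 0.386, 0.216 and 0.652.

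Tet3 in the SVZ went the other way with the 5 genes of the thalamic list, whose summed level was 86.2 to 1826 CPM in SVZ Sal and 139 to 1646 CPM in SVZ METH (r -0.968, exact permutation p 0.000322; rho -0.929, exact permutation p 0.00223; n = 8). Without the 2 farthest libraries, SVZ Sal 1 and METH 2, r was -0.943. In the SVZ the r with this list was also negative for Dnmt3a (-0.928), Dnmt1 (-0.895), Uhrf1 (-0.814) and Tet2 (-0.582). It was 0.147 for Dnmt3b and 0.281 for Tet1. Dnmt3a was higher where the 8 striatal medium spiny neuron genes were higher. The r was 0.825 in the NAc, 0.643 in the DG, 0.822 in the CA and 0.863 in the SVZ, with exact permutation p of 0.0186, 0.0672, 0.0163 and 0.00885 and adjusted p of 0.281, 0.423, 0.281 and 0.233. Spearman's rho was 0.405, 0.452, 0.619 and 0.690, and without the 2 farthest libraries r was 0.575, 0.225, 0.149 and 0.714, so in the DG and CA the relation rests on those 2 libraries. In the DG, where Dnmt3a was lower in METH, this list summed to 243 to 1848 CPM in Sal and to 149 to 441 CPM in METH, and its part in the result was not tested. Tet2 in the DG was lower where the 7 astrocyte genes were higher (r -0.907, exact permutation p 0.000546; rho -0.833, exact permutation p 0.0154; n = 8), and r was -0.814 without the 2 farthest libraries. The astrocyte sum was 2906 to 3660 CPM in DG Sal and 4165 to 4390 CPM in DG METH, so it differed between the same groups as Tet2 and its part in that result was not tested.

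**Figure D3:**
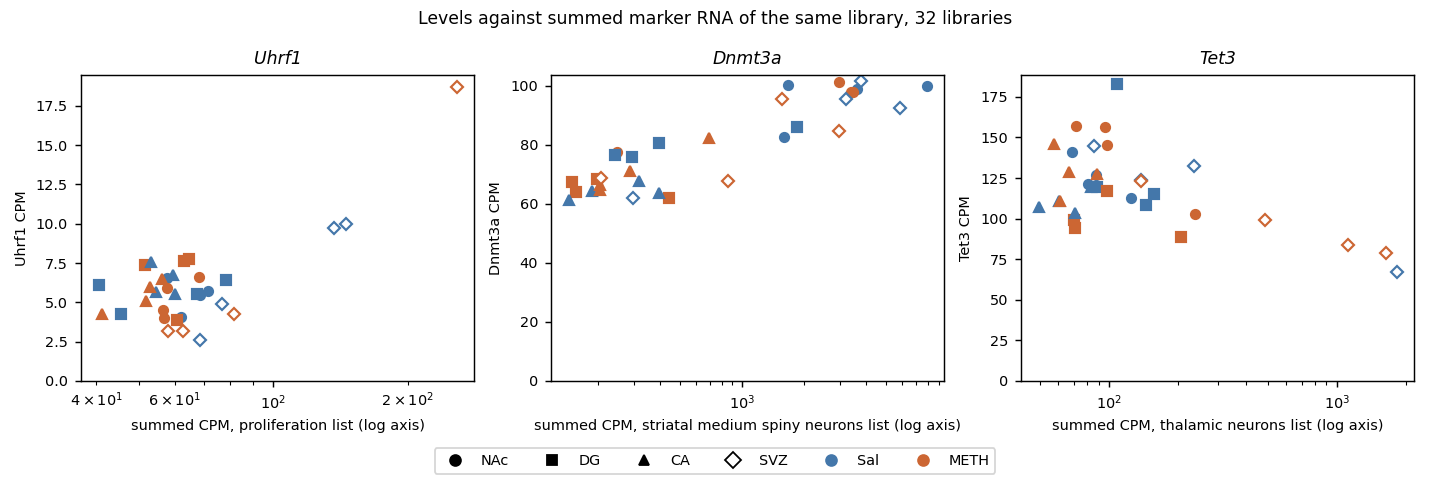
Level of Uhrf1, Tet3 and Dnmt3a in CPM (linear axis from 0) against the summed CPM of a marker list (log axis) in every library, by region and treatment. In the SVZ Uhrf1 is highest where the proliferation genes sum highest, and Tet3 lowest where the thalamic genes do.

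The genes most like each member over the 32 libraries, by Pearson's r of log2(CPM + 1) among 16121 others, are given as a description, since the libraries share regions, depth and dissection. For Uhrf1 they were Mki67 (r 0.92), the gene of the proliferation antigen Ki-67, which is also on the proliferation list, Metap1d (0.82) and Gas2l3 (0.79). Without the SVZ, the r with Mki67 was 0.71, and that with Metap1d 0.34. For Dnmt1 they were Dtl (0.81), whose product acts in DNA replication control, Rnps1 (0.79) and Smarcc1 (0.76). Without the SVZ these r were 0.53, 0.58 and 0.47, and Dtl was low, with a mean of 0.683 CPM. For Dnmt3a they were Prkar2b (0.93), a regulatory subunit of protein kinase A, Ric8b (0.91) and Art3 (0.90), with r above 0.90 without the SVZ as well. For Dnmt3b they were Pipox, Ikzf2 and Zbtb5 (0.73 to 0.78).

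The TET genes had different nearest genes. They were Baz2b, Ccdc88a and Ppp2r3a for Tet1 (0.83 to 0.84), Setdb1, which encodes a histone H3 lysine methyltransferase, Pou2f1 and LOC679894 for Tet2 (0.85 to 0.86), and Dusp8, Ksr2 and Trerf1 for Tet3 (0.87 to 0.88). Among the members themselves, Dnmt3a and Tet2 were most alike (r 0.76). Dnmt1 and Uhrf1 had an r of 0.68, which was 0.92 in the SVZ and 0.21 without it. Other pairs of members were also alike in the SVZ, such as Dnmt3a and Tet3 (0.97), Dnmt1 and Tet3 (0.83) and Dnmt3a and Uhrf1 (0.83).

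Around the 7 members, 52 genes of the methylation cycle were examined as lists: partners of maintenance and of de novo methylation, methyl-CpG readers, binders of unmethylated CpG, TET cofactors, repair of oxidised bases and the methyl donor cycle. Of the 47 or 48 that were tested, 0 were called in any METH comparison, beside 0% of all genes. Those with an unadjusted p under 0.05 were 1 higher and 1 lower in the NAc, 3 and 2 in the DG, 2 and 0 in the CA and 0 and 0 in the SVZ, beside 3.39%, 12.8%, 7.16% and 2.58% of all genes in either direction. The lowest FDR was that of Cxxc4 in the DG, which encodes a CXXC protein that binds unmethylated CpG. Its log2 fold change was -0.87 (SE 0.081), with an unadjusted p of 3.141e-06 and an FDR of 0.0465 (edgeR quasi-likelihood test, Benjamini-Hochberg adjusted), above the threshold of 0.01. Shmt1, a serine hydroxymethyltransferase that feeds single-carbon units to the methyl donor cycle, had 0.98 (SE 0.22, unadjusted p 0.00164) in the DG and 0.68 (SE 0.25, unadjusted p 0.0243) in the NAc. Ahcyl2, related to S-adenosylhomocysteine hydrolase, had 0.66 in the DG, and Ahcy, the hydrolase itself, had -0.27 in the NAc, where Gadd45g had 0.72 without passing an unadjusted p of 0.05.

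In the CA, the closest of these genes were Uhrf2, the paralog of Uhrf1, with a log2 fold change of 0.18 (unadjusted p 0.0195), Fbxl19 with 0.28 (unadjusted p 0.0330) and Zbtb38 with -0.16 (unadjusted p 0.0936). In the SVZ they were Zfp57 (0.54), Shmt2 (0.22) and Idh1 (0.26), with unadjusted p from 0.0521 to 0.0956. Averaged over the regions, 1 higher and 4 lower had an unadjusted p under 0.05, beside 7.83% of all genes in either direction. Among them, Shmt1 had a log2 fold change of 0.33 (SE 0.12, unadjusted p 0.0137) and Ogt, which binds TET proteins, had -0.16 (SE 0.072, unadjusted p 0.0301). The median log2 fold change of the lists was 0.016 in the NAc, -0.061 in the DG, -0.012 in the CA and -0.094 in the SVZ, beside 0.029, -0.011, 0.0051 and 0.016 over all genes tested.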

How the data were processed

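Total RNA depleted of ribosomal RNA was sequenced for 32 libraries. The authors trimmed the reads (cutadapt 2.7), checked them (FastQC 0.11.4), mapped them to rn6 (STAR 2.5.2b) and deposited raw counts of reads per gene and library from featureCounts 1.6.3, with replicates kept apart and strand not used. The analysis used R 4.3.3 and edgeR 4.0.16 (upper-quartile normalization, filterByExpr, quasi-likelihood test, Benjamini-Hochberg adjusted over all genes), with limma 3.58.1 and DESeq2 1.42.0 as alternatives. Each region was fitted on its 8 libraries, the averaged METH effect and the interaction on 32, and region differences on the 16 Sal libraries. The steps were tested on simulated data. The members and lists were chosen with earlier results of these data known. Named genes were the members, the 3 nearest genes of each and the 3 list genes with the lowest p per comparison (1 is not reported here), while Slc17a7, Ppp1r1b, Prkcd, Ttr, Fibcd1 and Spink8 were chosen after their values were seen. A count matrix of the series, with 14714 genes, served as an alternative. Other alternatives were TMM, no filter or a CPM minimum, other thresholds, blocks, RUVr factors, a joint fit and leaving out libraries. The header batch, the sets of doubtful libraries and the pairing of NAc with CA were added after seeing the data. Whether header batches match the sequencing batches that the paper reports is not known.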

Additional observations from a re-analysis of the deposited data

Results flagged for a closer look

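In 7 of the 56 groups of 4 libraries (7 members in 8 groups), 1 library lay far from the other 3. Chance alone marks about 1 in 20 groups in this way. Uhrf1 was 18.7 CPM in SVZ METH 1, where the next library held 4.28 CPM, and Dnmt1 was 75.9 CPM in the same library, where the next held 50.7 CPM. Uhrf1 was 3.85 CPM in DG METH 3, below the 7.35 CPM or more of the other DG METH libraries. In NAc METH 3, the library low in Ppp1r1b, Dnmt3a was 77.8 CPM against 97.9 CPM or more, and Dnmt1 was 50.2 CPM against 54.4 CPM or more. Dnmt3a was 82.6 CPM in NAc Sal 2, below the 99.1 CPM or more of the other NAc Sal libraries. Tet3 was 183 CPM in DG Sal 2, above the 119 CPM or less of the other DG Sal libraries.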

How the results depend on the processing

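Of 1399 member values recomputed under the alternatives, 1352 kept their direction and their side of the threshold, 45 turned their direction, 2 came to pass the threshold and 0 ceased to pass it. Of 311 recomputed counts of called members, 309 were unchanged. The difference between regions in saline took 1 member (Dnmt3a) in place of 0 without DG Sal 3 and SVZ Sal 1, as 1 of 1059 genes called. CA against the other regions took 1 (Dnmt3a) at an FDR under 0.05 with no fold threshold, as 1 of 1116 genes called out of 15515. Replicate numbers did not pair Sal with METH libraries: same-numbered Sal and METH libraries had correlations of their deviations from -0.27 to 0.28 in the NAc, -0.20 to 0.37 in the DG, -0.27 to 0.40 in the CA and -0.77 to 0.36 in the SVZ, and of the pairs of regions in saline only NAc and CA, whose library numbers are the same, had all 4 over 0.1 (0.119 to 0.243). With the replicate block, 0 members were called in any comparison, Dnmt3a in the DG was -0.28 (unadjusted p 0.0308), the FDR of Dnmt3a was 0.0738 between regions and 0.0409 for CA against the others (-0.44), and Uhrf1 in the SVZ turned to -0.31. Uhrf1 in the SVZ was -0.046 and -0.12 with 1 and 2 RUVr factors, -0.098 in the DG without the 4 libraries with crossing numbers, and on average -0.069 without them and -0.062 with the library number as a random effect in limma. With the header batch as a covariate, Dnmt3a was 0.0087 and Dnmt3b -0.27 in the NAc, and Tet2 -0.022 in the CA. In the NAc only Sal 3, Sal 4, METH 1 and METH 2 were of a batch with both treatments. Dnmt1 in the SVZ was 0.073 without the 3 libraries rich in Prkcd, and on average, without the 5 libraries whose markers go against their label, Dnmt1 was 0.0023 and Dnmt3b -0.047. Leaving out 1 library at a time gave Dnmt3a -0.080 to 0.066, Dnmt3b -0.35 to 0.38 and Uhrf1 -0.17 to 0.069 in the NAc, Tet1 -0.12 to 0.049 in the DG, and Dnmt1 -0.20 to 0.092, Tet2 -0.25 to 0.072 and Uhrf1 -0.93 to 0.36 in the SVZ. For the average over regions it gave Dnmt1 -0.066 to 0.0087, Dnmt3b -0.080 to 0.14 and Uhrf1 -0.24 to 0.082. In the SVZ and in the average the lowest Uhrf1 value came without SVZ METH 1. The cause of these shifts was not tested. Over all genes, the number called differed more: 0 to 183 in the DG and 0 to 1495 between regions in saline, both highest with DESeq2, and 0 to 1116 for CA against the others, highest at an FDR under 0.05 with no fold threshold. Depth limits Dnmt3b most, with 5 to 43 reads a library. DESeq2 gave no adjusted p for Dnmt3b in the DG.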
